A study of Mus musculus with 8 samples.

Results

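Of the 24539 genes in the RNA sequencing table of *Tut7*-/- and wild-type bone marrow-derived macrophages (BMDMs), 6 encode CC chemokines that are usually grouped as homeostatic or linked to alternative activation: *Ccl6*, *Ccl8*, *Ccl9*, *Ccl17*, *Ccl22* and *Ccl24*. They were chosen by gene name, and all 6 were among the 11501 genes with enough counts to be tested. BMDMs were grown from the marrow of 7-week-old male C57BL/6 mice for 7 days in medium of which 20% came from L929 cultures, and were held overnight in 10 ng/ml M-CSF. The 4 groups were *Tut7*-/- cells given LPS (KO-LPS), wild-type cells given LPS (WT-LPS), *Tut7*-/- cells without LPS (KO-Ctrl) and wild-type cells without LPS (WT-Ctrl), with 2 libraries each. LPS, a bacterial cell wall component that activates TLR4, was used at 100 ng/ml for 4 h. The mutation is a germline CRISPR/Cas9 deletion made with sgRNAs against introns 1 and 26 of *Tut7*, so it was present during the whole differentiation and was not limited to macrophages. Whether both libraries in each group represent separate mice is unstated in the sources used here, so each p-value measures only the spread between these libraries.

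CC chemokines are small secreted proteins that bind G protein-coupled receptors on leukocytes and direct their migration. CCL6 and CCL9, found in rodents, are ligands of CCR1 and are made by myeloid cells without stimulation. CCL17 and CCL22 share the receptor CCR4 and attract T cells, regulatory and TH2 cells among them; dendritic cells and IL-4-treated macrophages are known sources of both. CCL24 (eotaxin-2) acts on CCR3 of eosinophils, and mouse CCL8 is a ligand of CCR8. The cytokines IL-4 and IL-13, through the transcription factor STAT6, are textbook inducers of *Ccl17*, *Ccl22* and *Ccl24*. No library here had been given IL-4 or IL-13.

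On assembly GRCm38.p6 (mm10), *Ccl6* lies on the minus strand at chr11:83587886-83593087 and *Ccl9* on the same strand at chr11:83572917-83578636, 9249 bp apart with 1 gene starting between them. *Ccl8* (chr11:82115185-82116799, plus strand) is on the same chromosome but outside this pair. *Ccl22* (chr8:94745684-94751388) and *Ccl17* (chr8:94809380-94812038) are both on the plus strand, 57991 bp apart with 3 genes starting between them, and *Ccl24* is at chr5:135569935-135573123 on the minus strand. RefSeq promoter sequence was matched for 5 of the 6 genes, all but *Ccl24*. The 250 bases before the start are shown for the neighbours *Ccl6* and *Ccl9*, whose mRNAs moved in opposite directions with LPS, and for the neighbours *Ccl22* and *Ccl17*, which both rose. All are written 5′ to 3′ on the strand of the gene. The *Ccl6* window is chr11:83593088-83593337, the *Ccl9* window chr11:83578637-83578886, the *Ccl22* window chr8:94745434-94745683 and the *Ccl17* window chr8:94810203-94810452, which precedes a start inside the annotated span of that gene.
Ccl6: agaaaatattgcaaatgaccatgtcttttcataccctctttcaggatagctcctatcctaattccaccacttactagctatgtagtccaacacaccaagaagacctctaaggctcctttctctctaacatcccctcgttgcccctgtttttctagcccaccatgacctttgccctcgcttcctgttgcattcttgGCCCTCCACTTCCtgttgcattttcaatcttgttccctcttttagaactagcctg
Ccl9: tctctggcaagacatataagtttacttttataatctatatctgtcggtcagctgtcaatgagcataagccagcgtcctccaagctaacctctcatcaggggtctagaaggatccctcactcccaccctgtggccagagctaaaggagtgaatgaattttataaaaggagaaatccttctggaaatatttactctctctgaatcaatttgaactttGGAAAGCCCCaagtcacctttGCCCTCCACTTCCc
Ccl22: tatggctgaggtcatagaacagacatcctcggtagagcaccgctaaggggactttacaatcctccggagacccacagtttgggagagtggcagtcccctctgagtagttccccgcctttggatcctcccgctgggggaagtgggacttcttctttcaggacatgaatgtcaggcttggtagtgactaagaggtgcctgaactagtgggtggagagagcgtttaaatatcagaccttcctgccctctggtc
Ccl17: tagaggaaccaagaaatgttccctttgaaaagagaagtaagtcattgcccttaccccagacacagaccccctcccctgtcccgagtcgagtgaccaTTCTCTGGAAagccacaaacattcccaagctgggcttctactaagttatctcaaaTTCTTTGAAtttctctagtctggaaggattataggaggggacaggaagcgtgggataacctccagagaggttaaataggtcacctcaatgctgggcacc
In *Ccl6*, and in the last block of *Ccl9*, the capitals mark the longest run that both windows hold, GCCCTCCACTTCC, which is 13 bases long and starts 55 bases before the start of *Ccl6* and 14 bases before that of *Ccl9*. The other 9 pairs among the 5 windows share no run longer than 10 bases. The first capitals of *Ccl9* mark a match to the NF-κB consensus on the minus strand, which 3.9% of 32851 RefSeq promoter windows of this length also hold. In *Ccl17* the first capitals mark the match to TTCNNNNGAA, the spacing that STAT6 is known to prefer (5.85% of windows), and the second capitals a match to TTCNNNGAA (7.02%); the 2 matches do not overlap. *Ccl22* has no capitals, since none of the 7 motifs searched on both strands matched there. The other 4 motifs were AGGAAGT (7.69% of windows), which matched in *Ccl6* on the minus strand and overlaps the shared run, TGANTCA (6.75%), which matched in *Ccl9*, TTGCNNAA (9.56%), which matched in none of the 5 windows, and TATAAA (12.4%), which matched 3 times in *Ccl9* and once in *Ccl8*. A match is a description of the letters only.

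The libraries held 3767900 to 9394632 counts, and the 2 libraries of a group correlated at Pearson r of 0.969 to 0.988 on log2 CPM (counts scaled to library depth), lowest in KO-Ctrl. *Tut7*, listed as *Zcchc6*, had 18 and 19 counts in KO-LPS against 716 to 1162 in WT-LPS, and 17 to 23 counts in KO-Ctrl against 427 to 615 in WT-Ctrl. All 10 macrophage markers were detected, with a summed level of 18894 to 40961 CPM in every library, and the lymphocyte list stayed at or below 1.31 CPM. Of the neutrophil list, *Ly6g*, *Elane*, *Mpo* and *Retnlg* were at 0 counts in all groups. Levels below are RPKM (reads scaled to transcript length and library depth), as the authors deposited them, which allow genes to be compared. Fold changes are edgeR estimates on raw counts after TMM scaling (weighted trimmed mean of M-values), and a gene was called at an adjusted p under 0.05 over all tested genes. Scaling matters for the LPS comparisons: with library size alone, the median log2 change of all tested genes was -0.63 in *Tut7*-/- and -0.9995 in wild-type cells, where TMM gave -0.07 and -0.17. For KO-Ctrl over WT-Ctrl it was -0.28, where TMM gave 0.0055.

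The 6 genes covered a wide range of abundance. In KO-LPS, *Ccl9* averaged 957 ± 2.33 RPKM (SD, n = 2), *Ccl6* 93.9 ± 11.2, *Ccl22* 80.2 ± 2.39 and *Ccl8* 21.9 ± 3.63, followed by *Ccl17* at 1.61 ± 0.0316 and *Ccl24* at 1.47 ± 0.167. In WT-LPS the order was *Ccl9* (1079 ± 52.5), *Ccl22* (240 ± 18.1), *Ccl6* (63.3 ± 1.14), *Ccl8* (7.66 ± 0.701), *Ccl17* (5.90 ± 1.01) and *Ccl24* (1.15 ± 0.759). *Ccl22* was thus the second most abundant of the 6 in both WT-LPS libraries and the third, behind *Ccl6*, in both KO-LPS libraries. The gaps between *Ccl6* and *Ccl22* and between *Ccl17* and *Ccl24* in KO-LPS were close to the spread of the libraries.

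**Figure D1:**
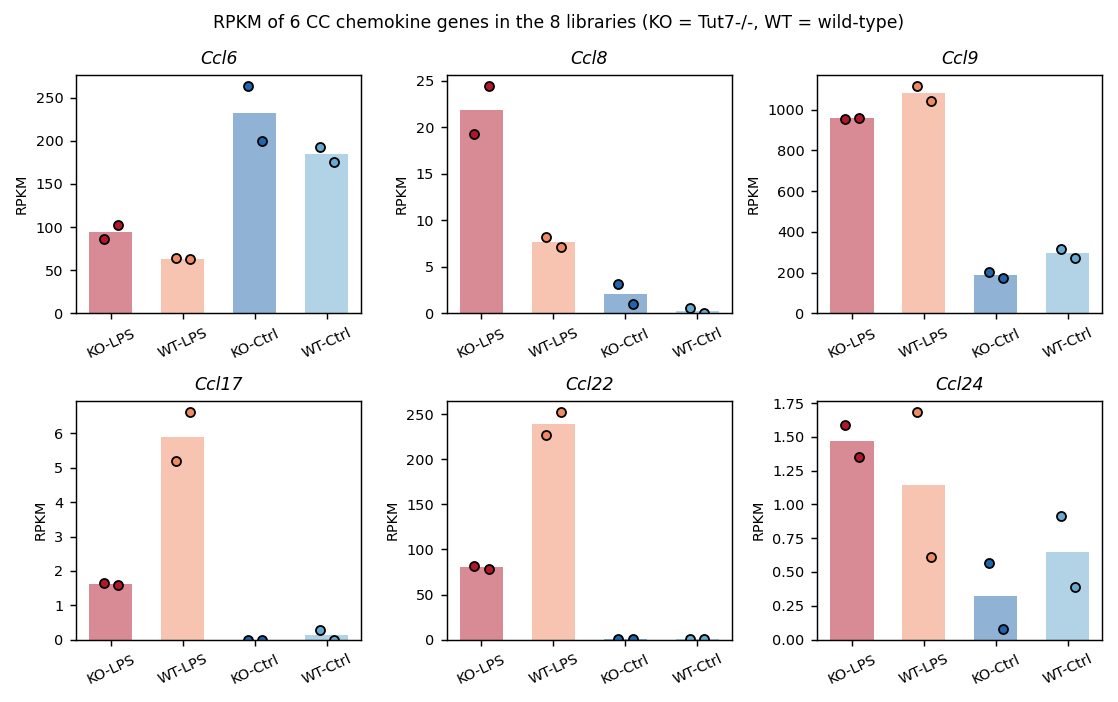
RPKM of each of the 6 CC chemokine genes (vertical axes, linear from 0, a scale per gene) in KO-LPS, WT-LPS, KO-Ctrl and WT-Ctrl; points are libraries and bars the mean of 2. Ccl22 was at 78.5 and 81.9 RPKM in KO-LPS against 227 and 252 RPKM in WT-LPS, Ccl6 is the one gene that was lower with LPS in both genotypes, and Ccl24 overlaps between KO-LPS and WT-LPS.

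Without LPS the genes that make up this group were almost entirely *Ccl6* and *Ccl9*. In KO-Ctrl, *Ccl6* averaged 232 ± 45.0 RPKM and *Ccl9* 188 ± 20.9, whereas in WT-Ctrl *Ccl9* averaged 294 ± 29.1 and *Ccl6* 184 ± 12.2 (SD, n = 2). *Ccl8* averaged 2.06 ± 1.48 RPKM in KO-Ctrl and 0.288 ± 0.407 in WT-Ctrl, *Ccl22* 0.239 ± 0.148 and 0.672 ± 0.0311, and *Ccl24* 0.324 ± 0.345 and 0.651 ± 0.370. *Ccl17* was at 0 counts in both KO-Ctrl libraries and had 1 count in the WT-Ctrl libraries. Among the untreated libraries, the levels of *Ccl8*, *Ccl22* and *Ccl24* rest on 0 to 13 counts per library, and their order cannot be read from so few.

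The question of what LPS does to this set was asked first in each genotype. In *Tut7*-/- cells, 5 of the 6 genes rose (34.8% of all tested genes were called higher) and 1 fell (33.2% lower). In wild-type cells 4 rose (27.0% called higher) and 1, *Ccl6*, fell (30.4% lower). The median log2 change of the 6 was 3.40 in *Tut7*-/- and 4.08 in wild-type cells.

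*Ccl22* rose in both genotypes. In KO-LPS it had 1234 and 1390 counts, against 2 and 6 in KO-Ctrl, a log2 fold change of 8.82 (SE 0.335, adjusted p = 1.4e-11). In WT-LPS it had 2463 and 1747 counts, against 8 and 10 in WT-Ctrl, a log2 fold change of 9.27 (SE 0.315, adjusted p = 6.07e-12). With LPS it ranked ninth of 21 CC chemokine mRNAs by RPKM in both KO-LPS libraries and seventh in both WT-LPS libraries. *Ccl17* moved the same way at a far lower level, with 7 and 8 counts in KO-LPS against none in KO-Ctrl. That is at least 7.14-fold higher, taking 3 counts over the group as the floor (adjusted p = 0.00117). In WT-LPS it had 16 and 13 counts, against 1 and 0 in WT-Ctrl, a count ratio of 77.7 whose 95% counting interval runs between 12.9 and 3174 (adjusted p = 5.85e-05). Within LPS-treated libraries, *Ccl22* RPKM exceeded *Ccl17* RPKM by 49.3 to 50.0 times in KO-LPS and 38.1 to 43.7 times in WT-LPS.

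The CCR1 ligands split. *Ccl9* had 23923 and 28205 counts in KO-LPS, against 4999 and 5019 in KO-Ctrl, a log2 fold change of 2.85 (SE 0.230, adjusted p = 3.38e-08). In wild-type cells it had 20137 and 11983 counts with LPS, against 6438 and 6552 without, a log2 fold change of 2.70 (SE 0.228, adjusted p = 7.73e-08). On the RPKM scale these rises were 5.09 times in *Tut7*-/- and 3.67 times in wild-type cells. *Ccl6*, in contrast, fell. It had 1027 and 1430 counts in KO-LPS, against 3101 and 2765 in KO-Ctrl, and its log2 fold change was -0.80 (SE 0.234, adjusted p = 0.00688). In WT-LPS it had 552 and 343 counts, against 1884 and 2009 in WT-Ctrl, with a log2 fold change of -0.72 (SE 0.237, adjusted p = 0.0169). The ratio of the mean RPKM was lower still, at 0.405 in *Tut7*-/- and 0.343 in wild-type cells. The fall in *Ccl6* was no longer called without WT-Ctrl replicate 1, WT-LPS replicate 1 or WT-LPS replicate 2 in wild-type cells (highest adjusted p = 0.114), nor without KO-LPS replicate 1 in *Tut7*-/- cells (adjusted p = 0.0779).

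*Ccl8* was very low without LPS and rose with it. It had 82 and 122 counts in KO-LPS, against 13 and 5 in KO-Ctrl, a log2 fold change of 3.94 (SE 0.493, adjusted p = 4.49e-06). In WT-LPS it had 25 and 14 counts, against 2 and 0 in WT-Ctrl, a count ratio of 52.3 with a counting interval of 13.5 to 447 (adjusted p = 2.96e-05). *Ccl24*, the eotaxin, had 17 counts in each KO-LPS library, against 6 and 1 in KO-Ctrl, a log2 fold change of 2.71 (SE 0.755, adjusted p = 0.00511), which missed the threshold without KO-Ctrl replicate 2 (adjusted p = 0.0506). In WT-LPS it had 13 and 3 counts, against 8 and 4 in WT-Ctrl, and its log2 fold change of 1.75 (SE 0.779, adjusted p = 0.066) was not called, although 7 of 17 alternatives called it.

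**Figure D2:**
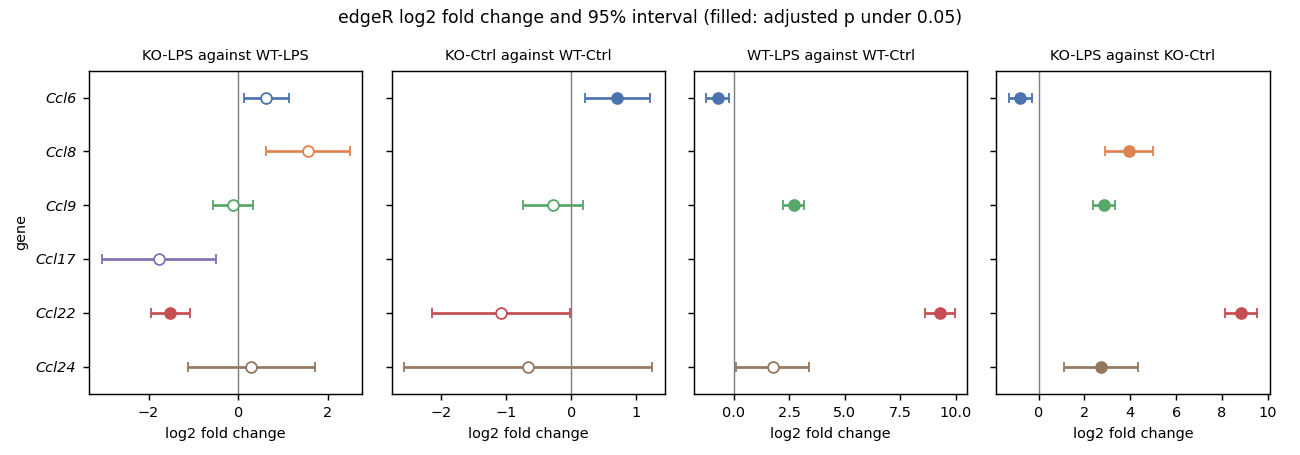
edgeR log2 fold changes (horizontal axes, a scale per panel) of the 6 genes (rows) in 4 comparisons, with 95% intervals as bars; filled points have an adjusted p under 0.05, and genes with 3 or fewer counts in either group of a comparison are left out. With LPS over without, Ccl22 lies at 8.82 in Tut7-/- and 9.27 in wild-type cells and Ccl6 lies below 0 in both, while between LPS-treated genotypes Ccl22 at -1.52 is the one filled point.

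Whether loss of TUT7 changes these genes in LPS-treated macrophages was the main comparison of the study's design. KO-LPS differed from WT-LPS at 1 of the 6, *Ccl22*, which was lower (0.774% of all tested genes were called lower and 0.626% higher). *Ccl22* was at 81.9 and 78.5 RPKM in KO-LPS and at 227 and 252 RPKM in WT-LPS, and the groups did not overlap. Its log2 fold change was -1.52 (SE 0.205, 95% interval -1.96 to -1.09, adjusted p = 0.00137), or 0.348 times the wild-type level. Its value stayed between -1.62 and -1.49 in all 18 alternatives that could test it. The call was lost without WT-LPS replicate 2 (adjusted p = 0.0611) and without KO-LPS replicate 2 (adjusted p = 0.0764).

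*Ccl17*, its CCR4-binding partner, was at 1.64 and 1.59 RPKM in KO-LPS and at 5.19 and 6.62 RPKM in WT-LPS. The groups did not overlap, but the log2 fold change of -1.78 (SE 0.595, adjusted p = 0.195) was not called, with 15 counts in KO-LPS and 29 in WT-LPS. Its 95% interval was -3.05 to -0.51. *Ccl17* was called in 2 of 17 alternatives: limma on log2(RPKM + 1) and the fit of only these 4 libraries.

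*Ccl8* was at 19.3 and 24.4 RPKM in KO-LPS and at 8.16 and 7.17 RPKM in WT-LPS. It also did not overlap, and its log2 fold change of 1.55 (SE 0.443, 95% interval 0.61 to 2.50) had an adjusted p of 0.107. *Ccl8* was called higher in 6 of 18 alternatives. *Ccl6* was at 86.0 and 102 RPKM in KO-LPS and at 64.1 and 62.5 RPKM in WT-LPS, with a log2 fold change of 0.63 (SE 0.237, 95% interval 0.12 to 1.13, adjusted p = 0.26), and was called higher in 4 of 19 alternatives. *Ccl9* was at 956 and 959 RPKM in KO-LPS and at 1117 and 1042 RPKM in WT-LPS. The groups did not overlap for *Ccl6* and *Ccl9* either. How many of all tested genes do not overlap was not counted, so this trait sets none of these genes apart. The *Ccl9* log2 fold change of -0.12 (SE 0.214, adjusted p = 0.877) had an interval of -0.57 to 0.34, which leaves changes of that size in either direction undetected. *Ccl24* was at 1.59 and 1.35 RPKM in KO-LPS and at 1.68 and 0.609 RPKM in WT-LPS, so its groups overlapped, with a log2 fold change of 0.30 (SE 0.671, adjusted p = 0.904). At an unadjusted p under 0.05, 4 of the 6 passed, as did 1480 of all 11501 tested genes. The median log2 change of the 6 was 0.09, against 0.10 for all tested genes.

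Among LPS-treated cells, the dendritic cell list summed to 607 to 629 CPM in KO-LPS and to 777 to 790 CPM in WT-LPS. Of its 10 genes 9 were detected, *Siglech* was at 0 in every library, *Flt3* at 0 in KO-LPS and *Cd209a* at 0 in WT-LPS, and edgeR called 0 of its 4 tested genes between the genotypes (2 at an unadjusted p under 0.05, 2 with DESeq2, 1 higher and 1 lower, and 0 with limma). The stromal list summed to 25.5 to 26.1 CPM in KO-LPS and to 103 to 111 CPM in WT-LPS. All 9 genes were detected, with *Lum* at 0 in KO-LPS and *Thy1* at 0 in WT-LPS. edgeR called 4 of its 6 tested genes lower in KO-LPS (0.774% of all tested genes were called lower and 0.626% higher). The list of mast cell, basophil and eosinophil genes summed to 7.12 to 8.24 CPM in KO-LPS and to 1.52 to 1.64 CPM in WT-LPS, where *Cpa3*, *Mcpt8*, *Fcer1a*, *Prg2* and *Epx* were at 0 in both groups and the whole signal came from *Siglecf*. The part of these cells in the difference in *Ccl22* was not tested. In bulk libraries fewer cells that make an mRNA and less of it per cell cannot be told apart.

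Without LPS, KO-Ctrl was higher than WT-Ctrl at 2 of the 6 genes, *Ccl6* and *Ccl8* by edgeR (14.8% of all tested genes were called higher and 22.2% lower), which called 0 of the 6 lower (0 at an unadjusted p under 0.05 and 0 with DESeq2). limma called 1 lower with a pseudocount of 1 and 2 with a pseudocount of 0.1. *Ccl6* was at 264 and 200 RPKM in KO-Ctrl and at 193 and 176 RPKM in WT-Ctrl, a log2 fold change of 0.71 (SE 0.233, 95% interval 0.21 to 1.20, adjusted p = 0.0286). It was called in 7 of 18 alternatives, and was not called without any one of 7 of the 8 libraries, KO-Ctrl replicate 2 being the exception (log2 0.32 to 1.03 over all alternatives, highest adjusted p = 0.215). *Ccl8* had 13 and 5 counts in KO-Ctrl and 2 and 0 counts in WT-Ctrl, a count ratio of 9.49 with a 95% counting interval of 2.27 to 84.4 (adjusted p = 0.0223). It was not called without WT-Ctrl replicate 2 or without KO-Ctrl replicate 1, nor with library size alone (highest adjusted p = 0.193).

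edgeR did not call *Ccl9*, *Ccl22* or *Ccl24* without LPS, though some alternatives called *Ccl9* and *Ccl22*. *Ccl9* was at 203 and 173 RPKM in KO-Ctrl and at 315 and 274 RPKM in WT-Ctrl. These values do not overlap, whereas the TMM-scaled CPM do, at 529 ± 120 in KO-Ctrl and 641 ± 94.8 in WT-Ctrl (SD, n = 2). Its log2 fold change was -0.28 (SE 0.215, adjusted p = 0.311), and with a correction for gene length and GC content it was 0.39. *Ccl9* was nevertheless called lower in 4 of 18 alternatives, at -0.59 with library size alone, -0.64 and -0.65 with limma and -0.53 without KO-Ctrl replicate 1. *Ccl22* had 2 and 6 counts in KO-Ctrl and 8 and 10 in WT-Ctrl, with a log2 fold change of -1.07 (SE 0.497, adjusted p = 0.122), and was called lower in 1 of 16 alternatives, limma on log2(RPKM + 0.1). *Ccl24* had 6 and 1 counts in KO-Ctrl and 8 and 4 in WT-Ctrl, which overlap, with a log2 fold change of -0.66 (adjusted p = 0.57). Beside these values, the macrophage list summed to 28428 to 40961 CPM in KO-Ctrl and to 20979 to 21333 CPM in WT-Ctrl, with 5 of its 10 genes higher in KO-Ctrl by edgeR, 6 by DESeq2 and 0 by limma, and 0 lower by any of these. The dendritic cell list summed to 124 to 153 CPM in KO-Ctrl and 99.3 to 102 CPM in WT-Ctrl. Of its 4 tested genes edgeR called 1 higher and 1 lower, and their median log2 change was -1.02. DESeq2 also called 1 higher and 1 lower, and limma called 1 higher and 2 lower. The stromal list summed to 29.6 to 30.7 CPM in KO-Ctrl and 76.6 to 84.5 CPM in WT-Ctrl. Of its 6 tested genes, edgeR, DESeq2 and limma each called 4 lower. Over all tested genes edgeR called 14.8% higher and 22.2% lower. The part of these lists in the *Ccl6* and *Ccl8* differences was not tested.

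A ratio of 2 genes within a library does not depend on how libraries are scaled. The RPKM ratio of *Ccl9* to its neighbour *Ccl6* was 11.1 and 9.42 in KO-LPS and 17.4 and 16.7 in WT-LPS. Without LPS it was 0.770 and 0.867 in KO-Ctrl and 1.63 and 1.56 in WT-Ctrl. The ratio was therefore lower in each *Tut7*-/- library than in each wild-type library of the same treatment, and *Ccl6* was the most abundant of the 21 CC chemokine mRNAs in both KO-Ctrl libraries where *Ccl9* was in both WT-Ctrl libraries. With 2 libraries against 2, an exact permutation test cannot give a two-sided p below 0.33.

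**Figure D3:**
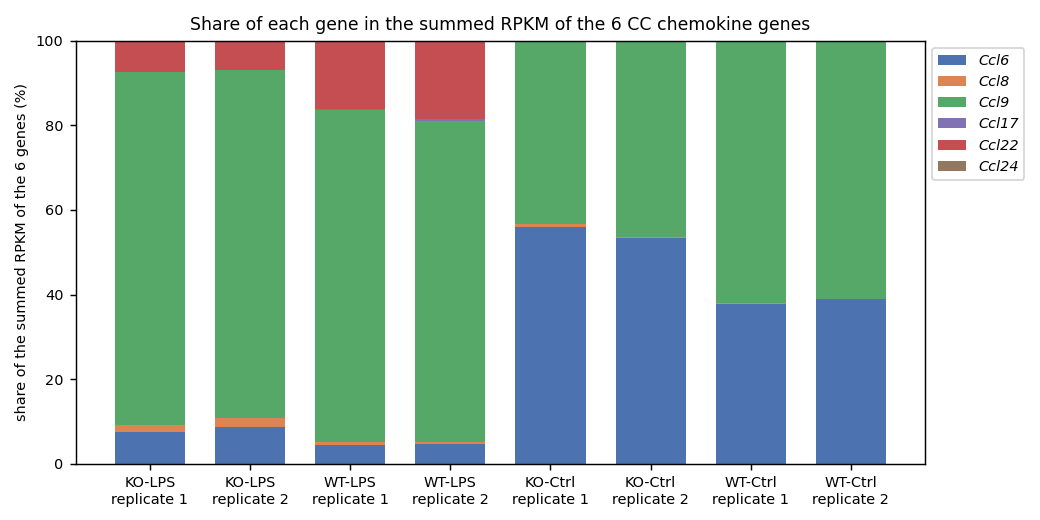
Share (%) of each gene in the summed RPKM of the 6 CC chemokine genes, 1 stacked bar for each of the 8 libraries. Ccl6 takes 56.1% and 53.4% in KO-Ctrl against 37.8% and 39.0% in WT-Ctrl, and Ccl22 takes 7.14% and 6.73% in KO-LPS against 15.9% and 18.4% in WT-LPS.

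Summed over the 6 genes, RPKM was 1146 and 1167 in KO-LPS, 1422 and 1372 in WT-LPS, 470 and 375 in KO-Ctrl, and 510 and 450 in WT-Ctrl. *Ccl9* alone made up 83.4% and 82.2% of that sum in KO-LPS, 78.5% and 76.0% in WT-LPS, 43.1% and 46.2% in KO-Ctrl, and 61.7% and 60.7% in WT-Ctrl. Set against all 21 CC chemokine ligands, the 6 held 73.6% to 75.2% of the RPKM in KO-Ctrl and 76.5% to 77.2% in WT-Ctrl, but 6.39% to 6.54% in KO-LPS and 6.02% to 6.54% in WT-LPS. In every LPS library the inflammatory chemokine *Ccl5* had the highest RPKM of the 21, and *Ccl9* was the fourth. Of the 15 other CC ligands 8 were tested. With LPS, edgeR called 6 of the 8 higher in *Tut7*-/- cells (34.8% of all tested genes were called higher and 33.2% lower). It called 6 higher in wild-type cells (27.0% higher and 30.4% lower), and 0 lower in either. At an unadjusted p under 0.05, 7 of the 8 passed in each, against 8121 and 7094 of all 11501 tested genes. DESeq2 also called 0 lower, and limma called 1 lower in each genotype with either pseudocount. Between KO-LPS and WT-LPS edgeR called 0 of the 8 (2 at an unadjusted p under 0.05, 1 with DESeq2, 0 with limma). Over all tested genes edgeR called 0.626% higher and 0.774% lower there. Without LPS, *Ccl4* (an inflammatory chemokine) was higher in KO-Ctrl than in WT-Ctrl by 0.61 on the log2 scale (adjusted p = 0.038), a call that 12 alternatives lost. *Ccl2* (the CCR2 ligand that draws monocytes) was lower in KO-Ctrl by 1.43 (adjusted p = 0.0165). It had 5 and 6 counts in KO-Ctrl and 15 and 17 in WT-Ctrl. Its call was lost in 4 of 17 alternatives. These were only the 4 libraries compared (adjusted p = 0.085), the length and GC correction (adjusted p = 0.097), and leaving out WT-Ctrl replicate 1 or KO-Ctrl replicate 2.

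The response to LPS was compared between the genotypes by a test of the difference. None of the 6 genes was called by edgeR (4.06% of all tested genes were called with a more positive and 0.435% with a more negative response in *Tut7*-/- cells). At an unadjusted p under 0.05, 0 of the 6 passed, against 2700 of all 11501 tested genes. DESeq2 called 0, and limma called 2 with a pseudocount of 1 and 0 with a pseudocount of 0.1. The log2 difference was -0.45 for *Ccl22* (SE 0.609, 95% interval -1.75 to 0.85, adjusted p = 0.695) and -1.53 for *Ccl8* (SE 1.09, adjusted p = 0.404). It was -0.08 for *Ccl6* (SE 0.332, 95% interval -0.79 to 0.62, adjusted p = 0.904) and 0.16 for *Ccl9* (SE 0.304, 95% interval -0.49 to 0.81, adjusted p = 0.773). *Ccl24* had 0.96 (SE 1.12, adjusted p = 0.619). No value is given for *Ccl17*, which had 1 count in all untreated libraries. The genotype difference in *Ccl22* was thus not shown to depend on LPS, and the interval rests on 8 counts in KO-Ctrl and 18 in WT-Ctrl. The *Ccl8* value rests on 18 counts in KO-Ctrl and 2 in WT-Ctrl.

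**Figure D4:**
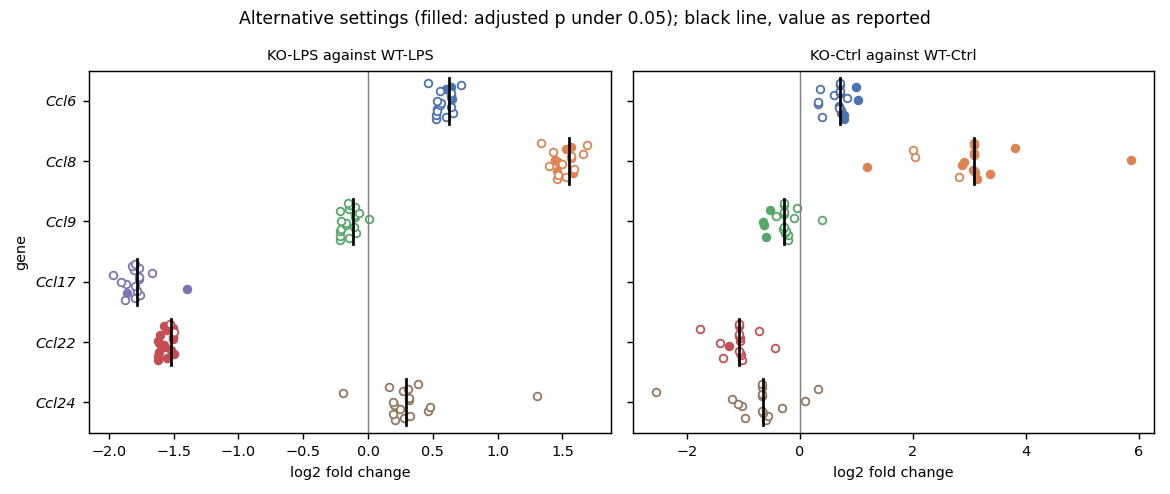
edgeR, DESeq2 or limma log2 fold changes (horizontal axes) of the 6 genes (rows) in each alternative setting that could test them, KO-LPS over WT-LPS on the left and KO-Ctrl over WT-Ctrl on the right. Ccl17 is left out on the right for its low counts. Filled points have an adjusted p under 0.05, and black lines are the edgeR values of all 8 libraries with TMM. Ccl22 stays between -1.62 and -1.49 on the left. On the right Ccl6 spreads between 0.32 and 1.03. Spreads there are wider for Ccl8 (1.20 to 5.86, with 2 counts in WT-Ctrl) and Ccl24 (-2.54 to 0.31).

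The receptors of these ligands were read next, of which 3 of 7 were tested. *Ccr4*, the receptor of CCL17 and CCL22, had 1 count over all 8 libraries, and *Ccr8*, the receptor of mouse CCL8, and the atypical receptor *Ackr1* had 0. The scavenger *Ackr2* had 1 count. *Ccr1*, which binds CCL6 and CCL9, was at 7.15 to 10.1 RPKM in KO-LPS and 2.40 to 3.24 RPKM in WT-LPS, and was higher in KO-LPS by 1.64 on the log2 scale (SE 0.295, adjusted p = 0.0119). The call for *Ccr1* was lost without either WT-LPS library and without either KO-LPS library. It was also lost with limma on log2(RPKM + 0.1) (adjusted p = 0.0529). *Ccr1* rose with LPS by 2.53 in *Tut7*-/- and 1.08 in wild-type cells, the second call being lost in 6 of 19 alternatives. In wild-type cells it was 0.24 with library size alone, 0.16 and 0.22 with limma and 0.36 with the length and GC correction, and it also missed the threshold without WT-Ctrl replicate 1 or WT-LPS replicate 1 (highest adjusted p = 0.546). *Ccr3*, the CCL24 receptor, rose with LPS by 1.65 in *Tut7*-/- cells (not called with the length and GC correction) and 1.87 in wild-type cells, and was at 3.86 to 4.00 RPKM in KO-LPS and 6.55 to 7.85 RPKM in WT-LPS, a difference that was not called (adjusted p = 0.218). *Ccr2*, which marks monocytes, was at 2.35 to 2.92 RPKM in KO-Ctrl and 27.6 to 30.6 RPKM in WT-Ctrl. Its log2 fold change was -3.11 in KO-Ctrl over WT-Ctrl (adjusted p = 2.04e-05) and -1.18 in KO-LPS over WT-LPS (adjusted p = 0.0372). The second call was lost in 9 of 19 alternatives. These were library size alone (adjusted p = 0.0763), both limma fits (adjusted p = 0.0558 and 0.0714), and leaving out any 1 of the WT-Ctrl, WT-LPS or KO-LPS libraries.

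Genes of the IL-4 and IL-13 pathway and of alternative activation were described by the same lists. All 13 IL-4 and IL-13 signalling genes were tested. With LPS over without, 8 rose and 3 fell in *Tut7*-/- cells (34.8% of all tested genes were called higher and 33.2% lower), and 9 rose and 3 fell in wild-type cells (27.0% higher and 30.4% lower). *Il13ra1*, a receptor chain for both cytokines, rose by 6.66 in *Tut7*-/- and 5.23 in wild-type cells on the log2 scale, and *Stat6*, *Irf4* and the nuclear receptor *Pparg* were the 3 that fell in each. Between KO-LPS and WT-LPS 1 of 13 was called (0.626% of all tested genes were called higher and 0.774% lower). This was *Il4ra*, the shared receptor chain, at 219 to 249 RPKM in KO-LPS and 113 to 117 RPKM in WT-LPS. It was higher in KO-LPS by 1.08 on the log2 scale (SE 0.219, adjusted p = 0.0222). The call for *Il4ra* was lost without any 1 of the 4 LPS-treated libraries. It was also lost with at least 10 counts in every library (adjusted p = 0.0612). Without LPS, edgeR called 2 of the 13 higher in KO-Ctrl than in WT-Ctrl and 3 lower (14.8% of all tested genes were called higher and 22.2% lower). *Il4ra*, at 36.2 to 40.5 RPKM in KO-Ctrl and 26.5 to 35.5 RPKM in WT-Ctrl, was among the higher. *Il2rg*, *Il13ra1* and *Jak1* were the 3 lower. DESeq2 also called 2 higher and 3 lower, whereas limma called 0 higher and 3 lower. Of 15 alternative-activation genes 8 were tested. *Retnla* was at 0 counts in all libraries, *Arg1* at 0 in both wild-type groups with 5 counts in each *Tut7*-/- group, and *Chil3* at 10 counts or fewer in each group. Between KO-LPS and WT-LPS 1 of the 8 was called (0.626% of all tested genes were called higher and 0.774% lower). This was fibronectin (*Fn1*), which was lower in KO-LPS by 1.73 on the log2 scale (adjusted p = 0.0196). *Fn1* was also lower in KO-Ctrl than in WT-Ctrl, with an edgeR log2 fold change of -1.46 (adjusted p = 0.00427). Without WT-Ctrl replicate 2 it was -0.99 and was no longer called. Without LPS, edgeR called 4 of the 8 lower in KO-Ctrl (22.2% of all tested genes were called lower) and DESeq2 called 3. Both called the mannose receptor *Mrc1* lower, at 10.2 to 16.6 RPKM in KO-Ctrl and 40.6 to 58.6 RPKM in WT-Ctrl (log2 fold change -1.56, adjusted p = 0.000709). *Fn1* in LPS-treated cells lost its call in 7 of 19 alternatives. These were library size alone (adjusted p = 0.102), both limma fits (adjusted p = 0.0918 and 0.112), and leaving out either WT-LPS or either KO-LPS library.

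For each of the 6 genes, the tested genes with the most similar profile over the 8 libraries were found by the root mean square difference of log2 CPM, each gene centred on its mean. For *Ccl6* these were *Chmp6* (0.0901) and *Suclg1* (0.0943), where the median over all 11500 other genes was 0.821. For *Ccl9* they were *H3f3b* (0.111), a histone H3.3 gene, and *Tfec* (0.131), a transcription factor gene, against a median of 1.54. For *Ccl22* they were *Shisa3* (0.381) and the cytokine gene *Il1b* (0.426), against 4.43. The nearest to *Ccl17* were *Vegfc* (0.202) and *Errfi1* (0.208), against 1.76, and to *Ccl8* they were the coagulation factor gene *F10* (0.400) and *Pdpn* (0.510), against 2.20. *Ccl24* was nearest to *Acat3* (0.328) and *Chac2* (0.368), against 1.23. The profiles share libraries and scaling, and *Ccl17*, *Ccl8* and *Ccl24* have few counts, so these are descriptions.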

How the data were processed

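Poly(A) RNA of BMDMs was sequenced by the authors as paired reads of 75 nt, mapped to mouse RefSeq RNA of mm10 and quantified with FANSe3. The values are raw read counts per gene symbol and RPKM, both as deposited by the authors. The counting strand was not stated. edgeR and mm10 are named in the submitters' processing notes. Another sheet with the same RPKM was left out.

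Count tests were run with edgeR 4.0.16 under R 4.3.3: filterByExpr (minimum count 10), TMM, and a robust quasi-likelihood fit of all 8 libraries with 1 coefficient per group (4 residual degrees of freedom), Benjamini-Hochberg adjusted over 11501 genes. SE is the log2 fold change divided by the root of the quasi-likelihood F. Where a group had 3 or fewer counts, exact binomial count ratios with 95% intervals are given, which cover counting error only. Alternatives were DESeq2 1.42.0, limma 3.58.1 on log2(RPKM + 1) and log2(RPKM + 0.1), other scalings, filters and sample sets, a replicate block, a length and GC correction and leaving out each library. The pipeline was tested on simulated data.

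The 6 genes, the gene lists and the tests were chosen with earlier results of these data known. Named genes are the 6, each tested receptor except 1 that is left out of the list and not reported here, up to 3 called genes with the largest change per list and comparison, and the 2 most similar genes per member; *Stat6*, *Irf4*, *Arg1*, *Retnla*, *Chil3* and genes at 0 were named after their values were seen. RefSeq promoters are of GRCm38.p6.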

Additional observations from a re-analysis of the deposited data

Results flagged for a closer look

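The LPS response of *Ccr2* was more positive in *Tut7*-/- than in wild-type cells by 1.93 on the log2 scale (SE 0.363, adjusted p = 0.0199 by edgeR's test of the difference), and that of *Mrc1* by 1.89 (SE 0.354, adjusted p = 0.0199). Both stood out because the response differed between the genotypes. *Ccr2* fell with LPS by 1.63 in wild-type cells (edgeR adjusted p = 4.5e-05). In *Tut7*-/- cells its change of 0.30 was not called (adjusted p = 0.33). edgeR called *Mrc1* lower with LPS in wild-type cells and higher in *Tut7*-/- cells. Both calls of the difference were lost without WT-Ctrl replicate 1, WT-LPS replicate 1, WT-LPS replicate 2 or KO-LPS replicate 1.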

How the results depend on the processing

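In 19 alternatives, the rises with LPS of *Ccl8*, *Ccl9*, *Ccl17* and *Ccl22* were called in each genotype wherever they could be tested. The minimum of 10 counts in every library left only *Ccl6* and *Ccl9* testable, so that of the 6 genes 0 were called in KO-LPS over WT-LPS, 1 in KO-Ctrl over WT-Ctrl, 2 in WT-LPS over WT-Ctrl and 2 in KO-LPS over KO-Ctrl. For KO-LPS over WT-LPS the number called was 2 with no filter, 4 with only the 4 libraries compared, 2 with limma on log2(RPKM + 1), 2 without both KO-Ctrl libraries, 3 with the length and GC correction, and 0 to 3 when 1 library was left out. For KO-Ctrl over WT-Ctrl it was 1 with library size alone (*Ccl9*, lower), 0 with only the 4 libraries, and 0 to 2 when 1 library was left out. For the difference between the responses limma on log2(RPKM + 1) called 2, *Ccl22* among them (-1.13). The causes were not tested.

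Over all tested genes, the 161 calls of KO-LPS over WT-LPS became 80 with library size alone, 278 with DESeq2, 377 with no filter, 86 with at least 10 counts, 1580 with only the 4 libraries, 94 with limma on log2(RPKM + 0.1), 703 without both KO-Ctrl libraries, 492 with the length and GC correction, and 14 to 761 when 1 library was left out. The 4259 of KO-Ctrl over WT-Ctrl became 2591 with only the 4 libraries, 2520 with the length and GC correction, and 1739 to 6350 when 1 library was left out. The 517 of the difference became 241 with DESeq2 size factors, 1355 with no filter, 185 with at least 10 counts, 1325 with limma on log2(RPKM + 1), and 1 to 3483 when 1 library was left out. With library size alone the split of higher against lower calls was 322 to 2980 for KO-Ctrl over WT-Ctrl (1707 to 2552 with TMM), 1755 to 6595 for WT-LPS over WT-Ctrl (3107 to 3491) and 2853 to 5377 for KO-LPS over KO-Ctrl (3999 to 3823).

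Direction changed for *Ccl9* with the length and GC correction, at 0.011 in KO-LPS over WT-LPS, 0.39 in KO-Ctrl over WT-Ctrl and -0.38 in the difference, and at -0.0054 in the difference with both DESeq2 size factors and the DESeq2 test. In the difference *Ccl6* changed to 0.22 with library size alone, 0.24 with limma on log2(RPKM + 1) and 0.25 on log2(RPKM + 0.1), and *Ccl8* to 0.20 with limma on log2(RPKM + 1). When 1 library was left out, the difference ranged between -0.36 and 0.25 for *Ccl6*, -0.048 and 0.39 for *Ccl9*, -0.83 and 0.25 for *Ccl22*, and -0.0093 and 2.81 for *Ccl24*, and *Ccl24* ranged between -0.19 and 1.30 in KO-LPS over WT-LPS and between -2.54 and 0.31 in KO-Ctrl over WT-Ctrl. Over the 16 alternatives that could test it, *Ccl8* ranged more widely in the difference, between -4.29 and 0.20. None of these values was called.

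The replicate numbers do not pair the samples by any label, and the correlations of same-numbered deviations from group means were -0.20 to 0.31. With a replicate block the number of the 6 genes called was the same in all 5 comparisons, and the calls over all genes were 177, 4403, 6633, 7850 and 585, in place of 161, 4259, 6598, 7822 and 517. Depth was low for *Ccl8*, *Ccl17*, *Ccl22* and *Ccl24* without LPS (0 to 18 counts a group) and for *Ccl17* and *Ccl24* with LPS (15 to 34 counts a group), so small differences there would not be detectable.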
